A study of Danio rerio with 10 samples.

Results

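The microRNA genes of the mir-10 and mir-196 families were followed in the livers of 5 zebrafish with activated β-catenin (ABC) and 5 wild-type (WT) zebrafish. The members were 3 rows taken by Ensembl identifier (dre-mir-10a, dre-mir-196b and dre-mir-196d) together with every row of the count table named mir10b-1, mir10b-2, mir10c, mir10d, mir196a-1 or mir196a-2. Of the 32266 genes in the table, 272 were rows of pre-miRNAs, and 7 of these were members: 4 of the mir-10 family (dre-mir-10a, dre-mir-10b-2, dre-mir-10c and dre-mir-10d) and 3 of the mir-196 family (dre-mir-196b, dre-mir-196d and a row named MIR196A2). No row carried the name mir10b-1 or mir196a-1, and both were not analysed here.

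The ABC fish carry the transgene Tg(fabp10a-pt-beta-cat), in which the fabp10a promoter drives an activated β-catenin in hepatocytes, and their livers had hepatocellular carcinoma (HCC) on histology. The WT fish were non-transgenic siblings whose livers showed no significant abnormality. All 10 fish were males of 4 months of age with no stated treatment, and each liver gave 1 small RNA library (ABC fish 6 to 10 and WT fish 1 to 5). The ABC promoter is active in hepatocytes, whereas the libraries hold RNA of all cells of the dissected liver, so fewer cells of a type and less RNA per cell cannot be told apart.

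MicroRNAs are short RNAs cut from a hairpin precursor, the pre-miRNA, and they lower the output of mRNAs that pair with their seed. The mir-10 and mir-196 genes sit inside the Hox clusters of vertebrates, where Hox genes set position along the head-to-tail axis of the embryo. Genes of the mir-10 family lie next to Hox genes of the fourth paralog group and genes of the mir-196 family next to those of the ninth, and members of both families repress Hox mRNAs. The annotation of a later assembly, RefSeq on GRCz12tu, was used here for gene order alone. It places mir10c between hoxb5a and hoxb4a, dre-mir-10b-2 between hoxc5a and hoxc4a, and mir10a between hoxb5b and skap1, at the edge of a cluster. It places mir196b between hoxb10a and hoxb9a and mir196d between hoxa10b and hoxa9b. The gene mir10d is the exception, since its neighbours in that annotation are lnpk and mtx2, genes that border a Hox cluster in other vertebrates, and no Hox gene.

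Total counts per fish were 1236439 to 2408262 in ABC and 1423307 to 2609547 in WT, with a mean difference of -142294 (ABC minus WT, p = 0.667 by an exact permutation test, two-sided). A single row, listed as mir124-1 in the table of gene names, whose identity was not settled here, took 31.0 to 47.6% of each ABC library's pre-miRNA counts and 65.8 to 74.5% of each WT library's. Levels are therefore given as CPM, counts relative to the library size, after TMM scaling, which allows for such dominant rows, and the scaling factors were 1.04 to 1.57 in ABC and 0.662 to 0.826 in WT. A pre-miRNA was called dysregulated at an adjusted p under 0.05 and an absolute log2 fold-change (L2FC) of at least 0.5. Of the 7 members, 3 had enough counts to be tested (dre-mir-10a, dre-mir-10c and dre-mir-10d), 3 had counts too low for the filter, and MIR196A2 (ENSDARG00000083309) had 0 counts in all 10 fish. Among the 3 tested members 2 were dysregulated, both lower in ABC. Over all pre-miRNAs tested, 62 of 144 were dysregulated (43.1%), and 28 of them were lower in ABC (19.4%), and 2 of 3 members is not set apart from that background.

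The row dre-mir-10a (ENSDARG00000082315) was lower in every ABC liver than in any WT liver once libraries were scaled by TMM. Its raw counts were 19, 30, 23, 63 and 46 in ABC fish 6 to 10, against 104, 249, 45, 2930 and 214 in WT fish 1 to 5. On the CPM scale these were 10.6, 9.49, 19.2, 22.3 and 23.4 in ABC, against 93.0, 186, 28.2, 1501 and 195 in WT. The ABC fish lay within a narrow low band, the WT fish spread widely, and WT fish 4 stood far above the rest. The groups came closest at ABC fish 10 with 23.4 CPM and WT fish 3 with 28.2 CPM. Of the 144 pre-miRNAs tested, 50 had groups that did not overlap (34.7%), and in 24 every ABC fish lay below every WT fish (16.7%).

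The mean was 17.0 ± 6.57 CPM in ABC and 401 ± 619 CPM in WT (SD, n = 5 each), with medians of 19.2 CPM in ABC and 186 CPM in WT. The L2FC of dre-mir-10a was -4.56 (SE 0.98), with an adjusted p of 0.00288 (edgeR quasi-likelihood test, Benjamini-Hochberg), and it was the third lowest L2FC of all pre-miRNAs tested. The size of that L2FC leaned on 1 fish, because WT fish 4 held 82.7% of all WT counts of the row. Without WT fish 4 the L2FC was -2.78 (SE 0.53) and the WT mean was 126 ± 79.7 CPM (SD, n = 4). The call did not need that fish: the adjusted p without it was 0.00156 (edgeR quasi-likelihood test, Benjamini-Hochberg).

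**Figure D1:**
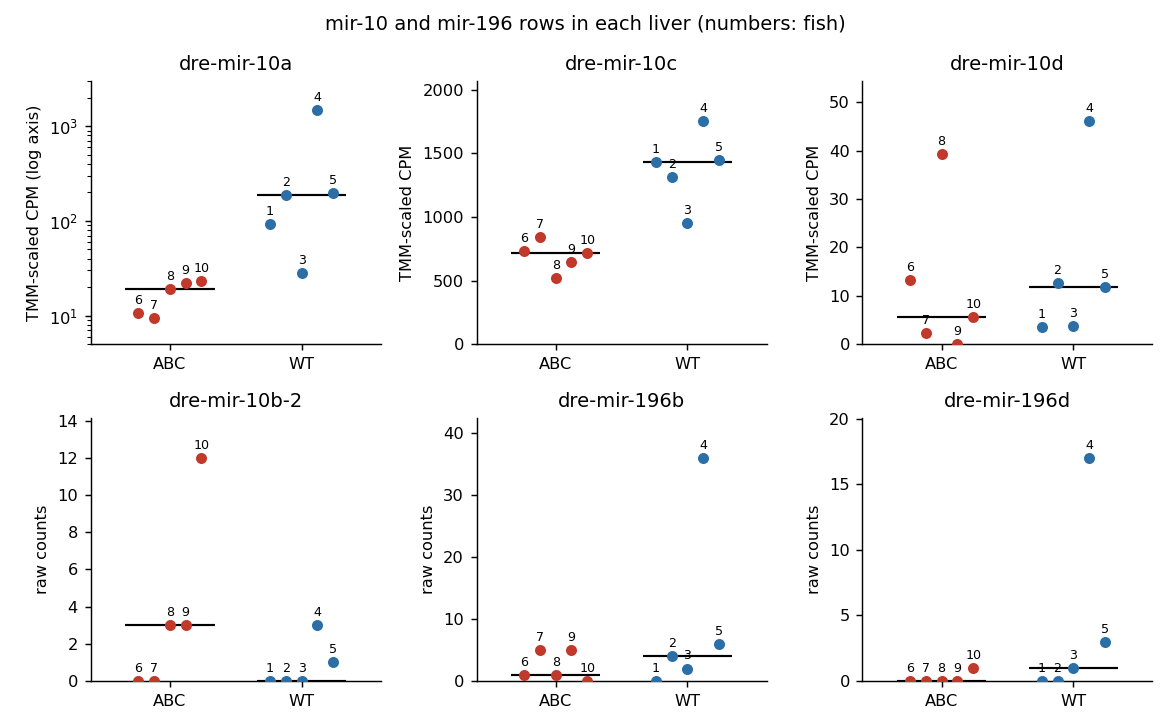
Levels of the 6 members with counts in each liver, with ABC fish in red and WT fish in blue, numbered by fish, and the group median as a line. The top row shows TMM-scaled CPM (log axis for dre-mir-10a, linear axes for dre-mir-10c and dre-mir-10d) and the bottom row raw counts on linear axes; WT fish 4 is the highest fish in dre-mir-10a, dre-mir-10c, dre-mir-10d, dre-mir-196b and dre-mir-196d.

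The separation of dre-mir-10a between groups depended on the scaling of the libraries, although its direction did not. As CPM of the pre-miRNA total with no TMM factor, it was at 13.2 to 36.8 in ABC and 23.3 to 1152 in WT, so that ABC fish 9 (28.8) and ABC fish 10 (36.8) lay above WT fish 3 (23.3). With the total pre-miRNA count as the only scaling, its L2FC was -3.77 and it was still dysregulated, at an adjusted p of 0.00556 (edgeR quasi-likelihood test, Benjamini-Hochberg). Under that scaling the median L2FC of all tested pre-miRNAs was 0.77 higher than under TMM, and the calls were 65 higher and 10 lower in ABC in place of 34 higher and 28 lower.

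The row dre-mir-10c (ENSDARG00000081638) was by far the most abundant member, and its CPM was lower in ABC livers than in WT livers. Raw counts were 1314, 2669, 621, 1813 and 1401 in ABC fish 6 to 10, against 1600, 1753, 1517, 3420 and 1589 in WT fish 1 to 5. In CPM these were 731, 844, 519, 643 and 713 in ABC, against 1431, 1311, 951, 1752 and 1448 in WT. No ABC fish reached the lowest WT fish, WT fish 3, although the WT fish spread over a wider range than the ABC fish. Mean levels were 690.1 ± 120 CPM in ABC and 1379 ± 289 CPM in WT (SD, n = 5 each). Its L2FC was -1.0 (SE 0.21) with an adjusted p of 0.00264 (edgeR quasi-likelihood test, Benjamini-Hochberg).

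Unlike that of dre-mir-10a, the L2FC of dre-mir-10c changed little with WT fish 4, which held 34.6% of its WT counts: it was -0.83 without that fish, with an adjusted p of 0.0134 (edgeR quasi-likelihood test, Benjamini-Hochberg). Its call did depend on the scaling. With the total pre-miRNA count alone, its L2FC was -0.20 with an adjusted p of 0.535 (edgeR quasi-likelihood test, Benjamini-Hochberg), so it was no longer dysregulated. As CPM with no TMM factor, the groups overlapped, at 539 to 1173 in ABC and 786 to 1345 in WT.

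The row dre-mir-10d (ENSDARG00000083047), the member whose gene lies outside the Hox genes proper, did not differ beyond the spread between fish. Raw counts were 24, 7, 47, 0 and 11 in ABC fish 6 to 10, against 4, 17, 6, 90 and 13 in WT fish 1 to 5. Each group had 1 high fish, ABC fish 8 at 39.3 CPM and WT fish 4 at 46.1 CPM, and the groups overlapped over nearly their whole range. The L2FC was -0.48 (SE 1.04) with an adjusted p of 0.719 (edgeR quasi-likelihood test, Benjamini-Hochberg). Its sign turned with the fish included: the L2FC was -1.65 without ABC fish 8 and 0.59 without WT fish 4, and neither fit called it.

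The row dre-mir-10b-2 (ENSDARG00000082918) was near the limit of detection. It had 0, 0, 3, 3 and 12 counts in ABC fish 6 to 10, against 0, 0, 0, 3 and 1 in WT fish 1 to 5. Most of its counts came from ABC fish 10. That fish also stood above the other ABC fish in mir202, a microRNA of the gonads, with 1136 counts against 4 to 86. The 5 testis transcripts of the marker list had 0 counts in that fish and in every other fish. The part of gonad cells in dre-mir-10b-2 was not tested. A count of 0 allows up to 3 counts. That came to 0.949 to 2.51 CPM in the ABC libraries and 1.54 to 2.73 CPM in the WT libraries. Only ABC fish 10, at 6.11 CPM, lay above all of these limits, and a difference below them was not detectable at this depth. A row named MIR10B (ENSDARG00000080641), which the member rule does not include, had 1 count, in WT fish 4.

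**Figure D2:**
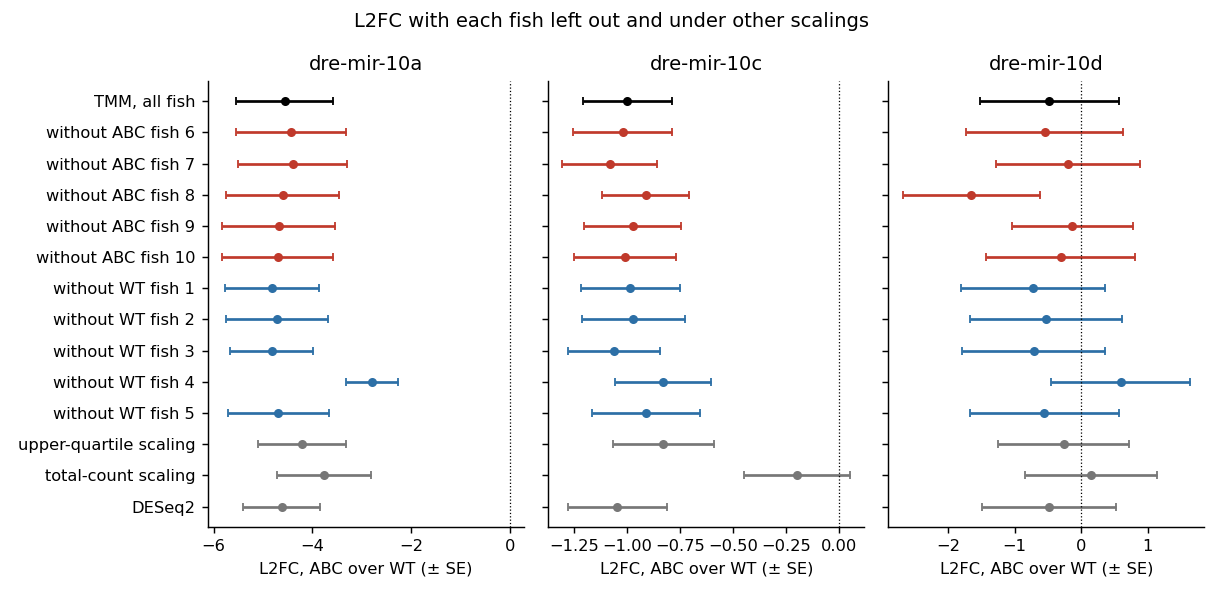
L2FC of ABC over WT with its SE (bars) for the 3 tested members, with all fish, with each fish left out in turn (ABC in red, WT in blue) and under other scalings or with DESeq2 (grey); the horizontal scales differ between panels. Leaving out WT fish 4 moved dre-mir-10a to -2.78 and turned dre-mir-10d to 0.59, while total-count scaling moved dre-mir-10c to -0.20.

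Each fish left out in turn gave 10 further fits. The L2FC of dre-mir-10a lay between -4.83 and -2.78 in them and that of dre-mir-10c between -1.08 and -0.83, and each was dysregulated in 10 of 10 fits. The row dre-mir-10d was dysregulated in 0 of 10.

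Because the share of 1 row within its family needs no scaling between libraries, the mir-10 rows were also compared with each other inside each fish. The 5 mir-10 rows together held 8106 counts in ABC and 13556 in WT, of which WT fish 4 had 6444. The share of dre-mir-10a in them was 1.40, 1.11, 3.31, 3.35 and 3.13% in ABC fish 6 to 10, against 6.09, 12.3, 2.87, 45.5 and 11.8% in WT fish 1 to 5. In 4 of the 5 WT livers the share lay above every ABC liver, and WT fish 3 lay among the ABC fish. Its 95% Wilson interval of 2.15 to 3.82% overlapped those of ABC fish 8 (2.22 to 4.92%), ABC fish 9 (2.63 to 4.27%) and ABC fish 10 (2.35 to 4.15%). These intervals treat each read as independent and do not include the spread between fish. Reads amplified without molecular identifiers are not independent molecules, so the intervals can be too narrow even for counting error.

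On average dre-mir-10a made up 2.46 ± 1.11% of mir-10 counts in ABC and 15.7 ± 17.1% in WT (SD, n = 5 each), or 8.27 ± 4.57% in WT without fish 4 (SD, n = 4). The rest was nearly all dre-mir-10c, at 89.5 to 98.6% in ABC and 53.1 to 96.7% in WT. WT fish 4 was the 1 liver in which dre-mir-10a approached dre-mir-10c, with 2930 and 3420 counts. The share of dre-mir-10d was highest in ABC fish 8, at 6.77%, and was 0% in ABC fish 9, where 0 of 1879 mir-10 counts allow up to 0.204% (Wilson).

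**Figure D3:**
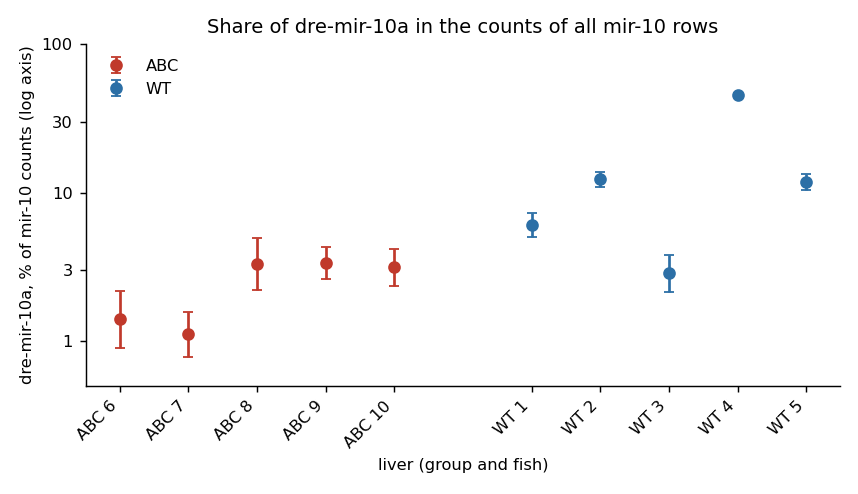
Share of dre-mir-10a in the counts of all 5 mir-10 rows of each liver (percent, log axis), with 95% Wilson intervals as bars, for ABC fish (red) and WT fish (blue). ABC fish lie between 1.11 and 3.35%, WT fish 3 lies among them at 2.87%, and WT fish 4 reaches 45.5%.

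The mir-196 rows were scarce in both groups. The row dre-mir-196b (ENSDARG00000081346) had 1, 5, 1, 5 and 0 counts in ABC fish 6 to 10, against 0, 4, 2, 36 and 6 in WT fish 1 to 5. The gene name table gives this identifier the symbol MIR196A2, so which mir-196 gene it stands for is uncertain. The groups overlapped, and WT fish 4 held 75.0% of the WT counts. Outside that fish the 4 other WT livers held 12 counts in all, against 12 in the 5 ABC livers. These raw counts are not scaled for library size. In CPM the means were 2.43 ± 2.37 in WT without fish 4 (SD, n = 4) and 0.950 ± 0.733 in ABC (SD, n = 5). Without that fish, and with a minimum of 1 count, the L2FC was -1.0 with an adjusted p of 0.452 (edgeR quasi-likelihood test, Benjamini-Hochberg).

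The row dre-mir-196d (ENSDARG00000081098) had 0, 0, 0, 0 and 1 counts in ABC fish 6 to 10, against 0, 0, 1, 17 and 3 in WT fish 1 to 5. WT fish 4 again held most of them, 81.0% of the WT counts, and the groups overlapped at 0. With every pre-miRNA of at least 1 count over the 10 fish tested, 65 of 208 were dysregulated (31.2%). In that fit dre-mir-196d had an L2FC of -3.97 with an adjusted p of 0.0343, dre-mir-196b had -2.31 with 0.0900, and dre-mir-10b-2 had 1.68 with 0.316 (edgeR quasi-likelihood test, Benjamini-Hochberg). Without WT fish 4 the call on dre-mir-196d was lost, at an L2FC of -2.29 and an adjusted p of 0.206 (edgeR quasi-likelihood test, Benjamini-Hochberg). Fitted L2FCs of rows at or near 0 depend on the small count that the model adds, so they are no bound on the size of a difference.

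A further row outside the member rule, MIR196B (ENSDARG00000099559), had 0, 1, 13, 2 and 0 counts in ABC fish 6 to 10, against 0, 0, 0, 18 and 0 in WT fish 1 to 5. With it, the mir-196 family held 29 counts in ABC, 14 of them in ABC fish 8, and 87 counts in WT, 71 of them in WT fish 4. WT fish 4 was thus the highest WT liver in dre-mir-10a, dre-mir-10c, dre-mir-10d, dre-mir-10b-2, dre-mir-196b and dre-mir-196d alike, at a library size of 2609547 total counts, the largest of the 10.

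Other pre-miRNAs were searched for those whose fish-to-fish pattern was most like that of dre-mir-10a, as a description over 10 fish on the log2(CPM + 1) scale. After the group mean was taken off each fish, the closest were mir141 (Pearson's r 0.94, Spearman's rho 0.77), MIR200B (ENSDARG00000080713; r 0.92, rho 0.76) and mir459 (r 0.82, rho 0.70). The first 2 belong to the mir-200 family, which is known for its expression in epithelial cells. The rows mir200a, dre-mir-429 and MIR200B (ENSDARG00000081868) of that family were dysregulated and higher in ABC, with L2FCs of 1.65, 1.03 and 1.40. In WT fish 4 mir200a was at 4376 CPM, against at most 4295 CPM in the other WT fish. Of the 3 closest rows, WT fish 4 had the highest level of each. It had 4190 CPM of mir141, against at most 1582 CPM in the other WT fish. For MIR200B (ENSDARG00000080713) it had 2794 CPM, against at most 849, and for mir459 759 CPM, against at most 360. Without WT fish 4 and WT fish 3, the 2 fish farthest from the median of dre-mir-10a, r fell to 0.61 for mir141, 0.46 for MIR200B and 0.55 for mir459. All points share their library and its scaling.

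None of the 3 closest rows (mir141, MIR200B ENSDARG00000080713 and mir459) passed the test between the groups. Levels of mir141 were 1608 ± 434 CPM in ABC and 1560 ± 1534 CPM in WT (SD, n = 5 each; adjusted p = 0.952 in the edgeR quasi-likelihood test, Benjamini-Hochberg). MIR200B was at 414 ± 152 CPM in ABC and 962 ± 1053 CPM in WT (SD, n = 5 each; L2FC -1.22, adjusted p = 0.134 in the same edgeR test, Benjamini-Hochberg). Levels of mir459 were 62.7 ± 48.9 CPM in ABC and 250.1 ± 317 CPM in WT (SD, n = 5 each; L2FC -2.0, adjusted p = 0.145 in the same edgeR test, Benjamini-Hochberg). When the group means were left in, the closest rows to dre-mir-10a were mir187 (r 0.85), MIR200B (r 0.80) and mir1-2 (r 0.79), a microRNA of muscle. Both mir187 (L2FC -1.69, adjusted p = 0.00409) and mir1-2 (L2FC -2.95, adjusted p = 0.00528) were themselves lower in ABC in the same edgeR test. Their r therefore includes the gap between the groups. Without WT fish 4 and WT fish 5, r was 0.91 for mir187, 0.46 for MIR200B and 0.78 for mir1-2.

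**Figure D4:**
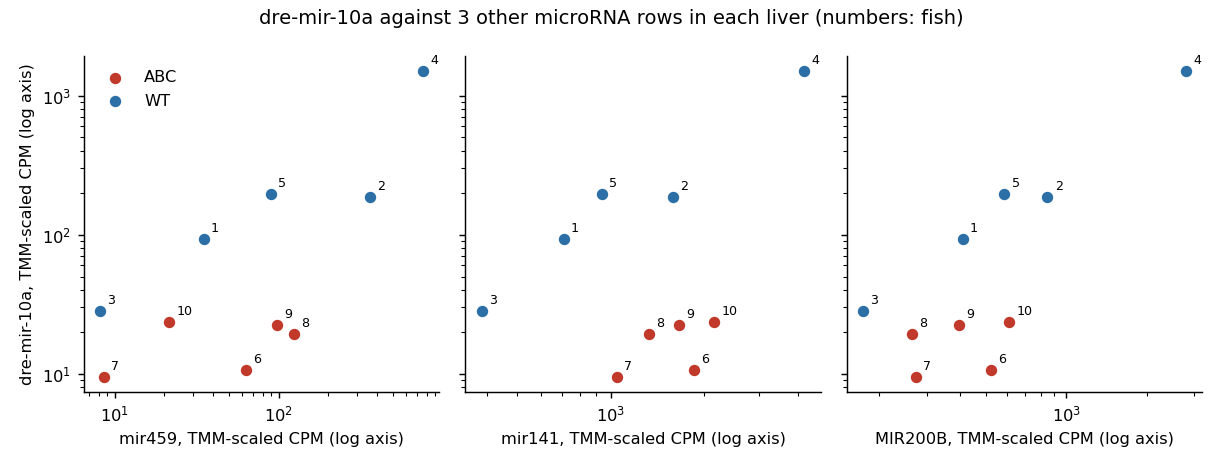
Level of dre-mir-10a (vertical, TMM-scaled CPM, log axis) against that of mir459, mir141 and MIR200B (horizontal, TMM-scaled CPM, log axes) in each ABC liver (red) and WT liver (blue), numbered by fish. WT fish 4 lies at the top right of all 3 panels. Mean levels of mir141 were 1608 CPM in ABC and 1560 CPM in WT, where WT fish 4 was at 4190 CPM. WT fish 2 (1582 CPM) lay among the ABC fish in mir141 (1047 to 2152 CPM). WT fish 1, 3 and 5 lay below all of them, at 385 to 937 CPM.

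The pattern of dre-mir-10c was shared with other rows. Its closest rows with group means left in were the MIR99A rows ENSDARG00000081315 (r 0.93) and ENSDARG00000082197 (r 0.88), and MIR214 (r 0.90), a microRNA of stromal cells. The MIR99A rows were themselves dysregulated and lower in ABC, with L2FCs of -0.92 and -1.20, so their r includes the gap between the groups. With group means taken off, the closest rows were MIR143 (r 0.90) and MIR145 (r 0.78), which mark smooth muscle and stromal cells, and MIR200B (r 0.70). Without WT fish 3 and ABC fish 8, r was 0.90 for MIR143, 0.64 for MIR145 and 0.39 for MIR200B. MIR143 was at 9926 ± 3342 CPM in ABC and 10818 ± 2899 CPM in WT (SD, n = 5 each; adjusted p = 0.728 in the edgeR quasi-likelihood test, Benjamini-Hochberg). MIR145 was at 1734 ± 602 CPM in ABC and 2744 ± 570.3 CPM in WT (SD, n = 5 each; L2FC -0.66, adjusted p = 0.0715 in that edgeR test). MIR214 was lower in ABC, at 86.1 ± 6.67 CPM in ABC and 123 ± 20.4 CPM in WT (SD, n = 5 each; L2FC -0.51, adjusted p = 0.0411 in that edgeR test), and its groups did not overlap. Other members of the stromal list did not share this pattern. The mir-199 rows (mir199-1a, mir199-2a and MIR199A2) had 0 or 1 counts in every fish. Stromal transcripts summed to 3 to 9 counts in ABC and 3 to 27 in WT. Of these, TAGLN (ENSDARG00000033466) had 2 to 4 counts in ABC and 0 to 1 in WT, and TAGLN (ENSDARG00000045408) had 0 in ABC and 0 to 5 in WT. For dre-mir-196b the highest r with group means left in, 0.67 with MIR200B, became -0.01 without WT fish 4 and WT fish 5.

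The mir-99, mir-100 and mir-125 genes are grouped with the mir-10 genes in the mir-10 family of miRBase and lie outside the Hox clusters. Of their 10 rows, 9 were tested, and 1 was higher and 4 lower in ABC, against 34 higher and 28 lower among all 144. Their L2FCs were -1.61 to 1.12 with a median of -0.39, against a median of -0.11 over all tested pre-miRNAs. The row mir100-2 had an L2FC of -1.12 and mir125c one of -1.61, with adjusted p of 0.00528 for mir100-2 and 5.81e-05 for mir125c (edgeR quasi-likelihood test, Benjamini-Hochberg).

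Transcripts of the Hox genes themselves were almost absent from these small RNA libraries. Of 47 Hox rows, 12 had a count, with 7 counts in ABC and 11 in WT and at most 4 in any fish, and 0 passed the filter. No comparison of Hox mRNAs with their cluster microRNAs was therefore possible.

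Some marker lists of other cell types differed between the groups, and others overlapped. WT fish 4 was the highest WT fish in some lists and the lowest in others. The tissue label was met by hepatocyte transcripts, 11 of 11 of which had counts, at 195 to 1151 CPM in ABC and 713 to 8135 CPM in WT in sum. Exocrine pancreas microRNAs (mir-216 and mir-217, 3 rows) were dysregulated and lower in ABC in 3 of 3, against 28 of all 144 tested pre-miRNAs (19.4%). They summed to 24.3 to 103 CPM in ABC and 369 to 4798 CPM in WT. Pancreas transcripts (7 of 7 with counts) summed to 4 to 12 counts in ABC and 34 to 874 in WT. Muscle transcripts (4 of 4 with counts) summed to 0 to 1 counts in ABC and 1 to 67 in WT, and muscle microRNAs (5 of 9 rows with counts, with mir133b, mir133a-1, MIR133A2 and mir499a at 0) to 1.11 to 11.7 CPM in ABC and 17.2 to 108 CPM in WT. The top WT values of the hepatocyte, pancreas and muscle transcripts all came from WT fish 5: the other WT fish reached at most 1406 CPM of hepatocyte, 127 counts of pancreas and 5 counts of muscle transcripts. Without WT fish 5, the L2FC was -4.69 for dre-mir-10a and -0.91 for dre-mir-10c, and both were still dysregulated. WT fish 4 was not the high fish of these lists: it had the lowest WT sum of pancreas microRNAs, 369 CPM, and 1 count of muscle transcripts.

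WT fish 4 did have the highest WT sum in 4 other lists of microRNAs. In that of the endocrine pancreas it had 362 CPM, against at most 341 CPM in the other WT fish. Of its 706 counts in that list, 683 were of MIR7-1, 9 of dre-mir-375-1 and 3 of dre-mir-375-2. Endocrine pancreas transcripts had 0 counts in WT fish 4. The 9 rows of epithelial microRNAs summed to 16620 to 29773 CPM in ABC and 6519 to 17230 CPM in WT. WT fish 4 had 17230 CPM and the other WT fish at most 11270 CPM. Not all of these rows were high in WT fish 4: dre-mir-205 had 72 counts and mir203b 105, against 400 and 1066 in WT fish 5. Epithelial transcripts (krt4 and krt5) were at 4.10 CPM (8 counts) in WT fish 4, against 23.7 CPM in WT fish 5. That was the lowest WT level in CPM but not in raw counts, which were 5 to 26 in WT. The 3 microRNA rows of the intestinal list (mir-192 and mir-194) summed to 116881 to 240620 CPM in ABC and 179873 to 260906 CPM in WT. WT fish 4 was the highest. The row mir192 alone had 148322 to 364355 counts in each of these livers, so this sum cannot tell intestine from liver. The row mir194b of this list was at 1051 CPM in WT fish 4, against at most 425 CPM in the other WT fish and 1275 to 4687 CPM in ABC. Intestinal transcripts were near 0 in every fish and did not set WT fish 4 apart. They summed to 4 counts in that fish, against 0 to 9 in the WT fish and 1 to 3 in ABC. In WT fish 4 CDH17 and FABP2 had 2 counts each, and VIL1 and FABP6 had 0. Stromal microRNAs (4 of 6 rows with counts) summed to 5583 to 15613 CPM in ABC and 10149 to 19338 CPM in WT, again highest in WT fish 4. Stromal transcripts were at 2.05 CPM (4 counts) in WT fish 4, against 24.6 CPM in WT fish 5. This was the lowest WT level in CPM but not in raw counts, which were 3 to 27 in WT. Of the 4 counts in WT fish 4, 3 were of acta2, which had 0 to 5 counts in WT. The part of these cell types in the levels of the mir-10 and mir-196 rows was not tested.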

How the data were processed

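Small RNA of 10 dissected livers (5 ABC, 5 WT, 1 per fish) was prepared with a NEBNext kit and sequenced; groups come from the labels. The authors deposited raw counts per Ensembl gene and fish, aligned to GRCz10 and counted with miRBase according to the methods, and the submitters' processing notes name Novoalign and featureCounts, with versions not given in the sources used here. How reads matching more than 1 gene were treated is also not given, so counts split between mir-10 or mir-196 paralogs are uncertain, and whether counting used strand is not given. The table has 0 unused columns and 0 rows without a gene; symbols for 26433 identifiers come from a gene name table. No mature or hairpin sequences were used here.

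Pre-miRNA rows were filtered with filterByExpr defaults, TMM-scaled and tested using edgeR 4.0.16 (R 4.3.3; glmQLFit, glmQLFTest, no covariate), with Benjamini-Hochberg adjustment over the 144 rows tested. SEs are the L2FC over the square root of F. DESeq2 1.42.0, other scalings, filters and thresholds and the omission of each fish were alternatives. The code was tested on simulated counts. The omission of WT fish 4 and 5 together, and of WT fish 4 under total-count scaling, were added after seeing the data. P-values of these fits weigh the difference between the groups against the spread between these fish.

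Every member is reported. Rows alike in pattern are the 3 with the highest Pearson's r to dre-mir-10a, dre-mir-10c (the mir-10 row of highest mean CPM) and dre-mir-196b (likewise for mir-196), with a pseudocount of 1. Members, marker lists and tests were chosen with earlier results of these data known.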

Additional observations from a re-analysis of the deposited data

Results flagged for a closer look

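A fish was set apart where its gap to the next fish exceeded Dixon's critical value for groups of 5. Of 21 groups of the mir-10 and mir-196 rows, sums and shares, 9 had such a fish, and 6 of the 9 were WT fish 4. Chance flags about 1.05 of 21 groups where values are normally distributed. The rule was applied to CPM and percent with no log taken, where a high fish stands apart more readily than on a log scale. The rate also does not hold for the 3 groups whose other 4 fish were all at 0, where a single count is enough. The rows, sums and shares are not independent either, so no excess over that rate is claimed. That single fish weigh on dre-mir-10a was known when the members were chosen. WT fish 4 stood apart in dre-mir-10a with 1501 CPM, against 28.2 to 195 CPM in the other WT fish, and in the share of dre-mir-10a in mir-10 counts with 45.5%, against 2.87 to 12.3%. It stood apart in dre-mir-10d with 46.1 CPM, against 3.58 to 12.7 CPM, and in the summed mir-196 rows with 36.4 CPM, against 0 to 8.20 CPM. It was the only WT fish with counts of MIR196B, at 9.22 CPM, and of MIR10B, at 0.512 CPM or 1 count. ABC fish 8 stood apart in MIR196B with 10.9 CPM, against 0 to 0.709 CPM in the other ABC fish, and in the summed mir-196 rows with 11.7 CPM, against 0.509 to 2.48 CPM. ABC fish 10 stood apart in dre-mir-196d with 0.509 CPM, which is 1 count.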

How the results depend on the processing

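The L2FC of dre-mir-10a stayed negative and past the threshold in all 21 alternatives, and that of dre-mir-10c stayed negative in all 21 and past the threshold in 19. The number of dysregulated members was 1 in place of 2 with the total pre-miRNA count alone, and with that scaling without WT fish 4. The member no longer called was dre-mir-10c in each case. The median L2FC of all tested pre-miRNAs was 0.77 higher than under TMM in each case, and the cause of the lost call was not tested. The number was also 1 at an absolute L2FC of at least 1, which excludes dre-mir-10c by its construction. The number was 3 with a minimum of 1 count or of 10 counts over the fish, where dre-mir-196d was called (adjusted p = 0.0343 or 0.0321, edgeR). That row had 1 count in ABC and 21 in WT, 17 of them in WT fish 4. It therefore passed the minimum of 10 only through the group where it was high. With a minimum of 1 count and without WT fish 4 it was not called (adjusted p = 0.206, edgeR). The calls over all pre-miRNAs moved as well. Of the 144 tested, 75 were dysregulated with the total pre-miRNA count alone, in place of 62. At an absolute L2FC of at least 1 there were 47. With total-count scaling and without WT fish 4 there were 74. With a minimum of 1 count 65 of 208 were dysregulated (31.2%), and with 10 counts 68 of 185 (36.8%). Without WT fish 4 under total-count scaling, the L2FC of dre-mir-10c was -0.10. With each fish left out, the L2FC of dre-mir-10d lay between -1.65 and 0.59. Its sign turned, uncalled, to 0.15 with the total pre-miRNA count alone, 0.59 without WT fish 4, 0.78 without WT fish 4 and 5, and 1.16 without WT fish 4 under total-count scaling. The difference in mean total counts was -142294 (ABC minus WT) and 34100 without WT fish 4; leaving out each fish gave -303940 to 34100. All mir-10 rows summed to 1 row had an L2FC of -1.34, or -0.91 without WT fish 4. The median L2FC shifted by 0.15 with upper-quartile factors, which gave 35 higher and 19 lower calls. No paired analysis was made because the labels state no pairing of fish between the groups. The numbers 1 to 10 are those of the libraries. The fish codes in the labels carry the letter C in every WT fish and E in every ABC fish, and its meaning is not given. Depth limits the mir-196 rows and dre-mir-10b-2, none of which exceeded 13 counts in any fish but WT fish 4.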

Other observations

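The other marker lists gave the following summed levels. Leukocyte microRNAs (6 of 7 rows with counts) summed to 52734 to 166051 CPM in ABC and 22990 to 39887 CPM in WT. Most of this sum was mir146a. Of the 6 tested rows 2 were higher and 1 lower in ABC, against 34 higher and 28 lower among all 144. The row mir150 had 1455 to 4150 counts in ABC and 4728 to 6280 in WT. Endothelial microRNAs (1 of 2 rows) summed to 1155 to 1335 CPM in ABC and 1350 to 1901 CPM in WT. Endocrine pancreas microRNAs (6 of 6 rows) summed to 318 to 784 CPM in ABC and 267 to 362 CPM in WT, and nearly all of this sum was MIR7-1. Kidney microRNAs (4 of 5 rows) summed to 8453 to 16671 CPM in ABC and 9173 to 13365 CPM in WT. The row mir30d alone had 11772 to 27596 counts in each of these livers, so this sum cannot tell kidney from liver. Kidney transcripts summed to 0 to 1 counts in ABC and 0 to 3 in WT. Nervous system microRNAs (7 of 16 rows) summed to 26.6 to 91.5 CPM in ABC and 28.8 to 85.2 CPM in WT. The dominant row listed as mir124-1, whose identity was not settled, was left out of that sum. Erythrocyte transcripts summed to 0 to 1 counts in ABC and 0 to 13 in WT. The 5 testis transcripts were at 0 in all 10 fish, whereas the testis microRNA mir202 was at 3.34 to 578 CPM in ABC, highest in ABC fish 10, and at 8.71 to 93.0 CPM in WT, highest in WT fish 5.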
